A study of Mus musculus with 15 samples.

Results

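The S100 genes code for small calcium-binding proteins. The 8 described here, S100a1, S100a4, S100a6, S100a8, S100a9, S100a10, S100a11 and S100a13, were found by symbol in the array annotation, and all 8 are among the 19938 genes measured. They were taken in 3 classes given with the list: S100a8 and S100a9 as myeloid, S100a1 as the muscle member, and the other 5 as stromal or broadly expressed. The study followed gene expression through the clinical phase of collagen-induced arthritis (CIA), a mouse model of rheumatoid arthritis, and asked when during the disease its changes occur. Male DBA/1JBom mice had been injected intradermally with 100 µl of chicken type II collagen (2 mg/ml) in complete Freund's adjuvant (0.5 mg/ml) on day 1, with a boost on day 21. Affected paws were sampled at a clinical score of 3, which was day 0 to 3 of arthritis for animals 16 and 18, week 1 to 2 for animals 33, 43 and 52, and week 3 to 4 for animals 54, 29 and 60. Declining joints (15, 21 and 10) came from paws whose score had fallen after more than 2 weeks at 3. The labels call the 3 control mice non-induced, and whether they had received adjuvant is not settled by the sources used here. Each array held the RNA of 1 unpooled tarsal joint, with skin, fur and visible muscle removed and other soft tissue kept, so the values describe a mixture of bone, cartilage, synovium and the rest. A further joint of day 0 to 3 (animal 57) is marked as failing quality control and was left out unless it is named. The 5 joints of the first 2 weeks are called early joints here.

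S100 proteins work as dimers that change shape when calcium binds and then hold on to a partner protein. S100a8 and S100a9 together form calprotectin, an abundant protein of the neutrophil cytosol that is released at sites of inflammation, is a marker of active arthritis, and signals through TLR4 and the receptor RAGE (Ager). S100a10 is the exception that does not bind calcium: it pairs with annexin A2 at the cell membrane, where it gathers plasminogen. S100a4 is found in fibroblasts and in cells of the immune system and binds non-muscle myosin, S100a6 (calcyclin) binds Cacybp, S100a11 binds annexin A1, S100a13 takes part in the release of FGF1 and IL-1α, and S100a1 acts on the ryanodine receptor of striated muscle.

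All 8 genes lie on chromosome 3, in the order S100a1, S100a13, S100a4, S100a6, S100a8, S100a9, S100a11, S100a10. S100a8 is the direct neighbour of S100a9, and S100a11 of S100a10. The upstream sequences of 4 members are shown. The first pair belongs to genes that were higher in the first 2 weeks of arthritis in the deposited values, S100a11 not after the rescaling described below. The second pair belongs to neighbouring genes whose products form 1 complex. No upstream sequence of S100a10 was at hand. Each sequence shown is the 250 bases before the start of the gene in RefSeq (GRCm38.p6), read in the direction of the gene. Capitals mark matches, on either strand, to 4 motifs spelled out after the sequences.
S100a4: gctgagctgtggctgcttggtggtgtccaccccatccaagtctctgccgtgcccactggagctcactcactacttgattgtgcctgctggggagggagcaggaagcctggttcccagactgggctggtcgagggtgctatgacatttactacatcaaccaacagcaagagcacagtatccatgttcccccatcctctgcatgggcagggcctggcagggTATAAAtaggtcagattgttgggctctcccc
S100a11: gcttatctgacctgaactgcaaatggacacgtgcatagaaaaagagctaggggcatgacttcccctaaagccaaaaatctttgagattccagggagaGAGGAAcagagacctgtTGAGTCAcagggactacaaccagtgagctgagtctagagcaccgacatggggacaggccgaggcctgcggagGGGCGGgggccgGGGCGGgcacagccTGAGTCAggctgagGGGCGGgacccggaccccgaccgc
S100a8: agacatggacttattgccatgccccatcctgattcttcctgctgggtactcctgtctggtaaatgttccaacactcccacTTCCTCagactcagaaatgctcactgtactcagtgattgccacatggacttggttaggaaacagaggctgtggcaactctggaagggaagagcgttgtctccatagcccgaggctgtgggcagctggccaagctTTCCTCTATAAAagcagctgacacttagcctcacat
S100a9: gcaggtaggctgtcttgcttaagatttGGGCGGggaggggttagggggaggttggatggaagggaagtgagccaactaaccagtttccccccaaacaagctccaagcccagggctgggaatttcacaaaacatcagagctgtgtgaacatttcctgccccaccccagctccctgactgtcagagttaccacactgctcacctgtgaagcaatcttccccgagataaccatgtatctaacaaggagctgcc
The windows are chr3:90603520-90603769 (plus strand), chr3:93520246-93520495 (plus), chr3:90668821-90669070 (plus) and chr3:90695722-90695971 (minus). The TATA box, TATAAA, begins 31 bases before the start of S100a4 and 30 before that of S100a8, and 12.4% of the 32851 mouse windows of that length hold it. In S100a8 it directly follows, without overlap, a reversed GAGGAA, 1 form of ETS factor site (in 23.3% of windows). That match begins 36 bases before the start, and a further one begins at 170. Shorter or other forms of ETS site were not searched. S100a11 holds no TATAAA in this window but 3 GC boxes, GGGCGG (in 32.7% of windows), and 2 copies of TGANTCA, the AP-1 motif, which reads the same on both strands and is in 6.75% of windows, at 136 and 38 bases before the start, besides 1 GAGGAA at 153. The window of S100a9 holds 1 GC box, and those of S100a1, S100a6 and S100a13 hold none of the 4 motifs as spelled here. S100a1 and S100a13 start close together in opposite directions, and their windows share 104 bases.

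The deposited values are log2 signals, so 1 unit is a 2-fold difference, and levels are compared between joints for 1 gene at a time. Differences between groups were tested by limma over all 19938 genes in 1 fit, with calls made at a p under 0.05 after Benjamini-Hochberg adjustment. The first 2 weeks entered comparisons as the mean of their 2 group means. Signal range differed between arrays: the SD over genes was 1.22 to 1.46 in controls, 1.48 to 1.65 in the first 3 phases and 1.28 on the array of decline 10. When every array was given 1 median and SD instead, every member moved down relative to controls at day 0 to 3. S100a10 went from 2.21 to 1.91 and S100a4 from 2.03 to 1.69, both still called. S100a6, S100a8, S100a9 and S100a11 moved further, and did so in the first 3 phases. Changes of sign and lost calls of members under this rescaling are named with them. Joint markers were present in all 14 arrays, with Prg4 (lubricin) at 12.01 to 12.83 and the cartilage gene Comp at 8.88 to 9.58. All phases share the same 3 controls.

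In the deposited values S100a10 and S100a4 rose 4.10- to 4.64-fold in the first 2 weeks of arthritis, and by less at day 0 to 3 after rescaling. S100a11 rose by less than 2-fold in the deposited values but not after rescaling. The remaining 5 members passed the test in no phase of the deposited values. At day 0 to 3, 3 of the 8 members were called higher (S100a4, S100a10 and S100a11), against 4.46% of all genes, and none lower. The same 3 members were called higher in week 1 to 2, against 5.41% of all genes. In week 3 to 4 no member was called, against 0.958% of all genes called higher, and 3 of the 8 had an unadjusted p under 0.05 in limma, as did 23.9% of all genes. In decline 0 members were called, as were 0.0% of all genes, and 1 of the 8 (S100a11) had an unadjusted p under 0.05, as did 2400 of the 19938 genes. The same model without moderation of the variances called 2 members at day 0 to 3, 2 in week 1 to 2 and 0 in decline. It called 361, 546 and 0 of the 19938 genes higher in these phases. With animal 57 added, no member was called in any comparison. That fit called 11 of all genes higher at day 0 to 3 and 22 in week 1 to 2. At day 0 to 3 its differences were 1.27 for S100a10 and 1.20 for S100a4 (limma adjusted p = 0.49 and 0.53). The median log2 change over the 8 members was 0.48, 0.55, 0.50 and 0.11 in the 4 phases, beside -0.12, -0.13, -0.09 and -0.05 over all genes. In RNA of a whole joint, fewer cells of a type and less RNA per cell cannot be told apart.

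**Figure D1:**
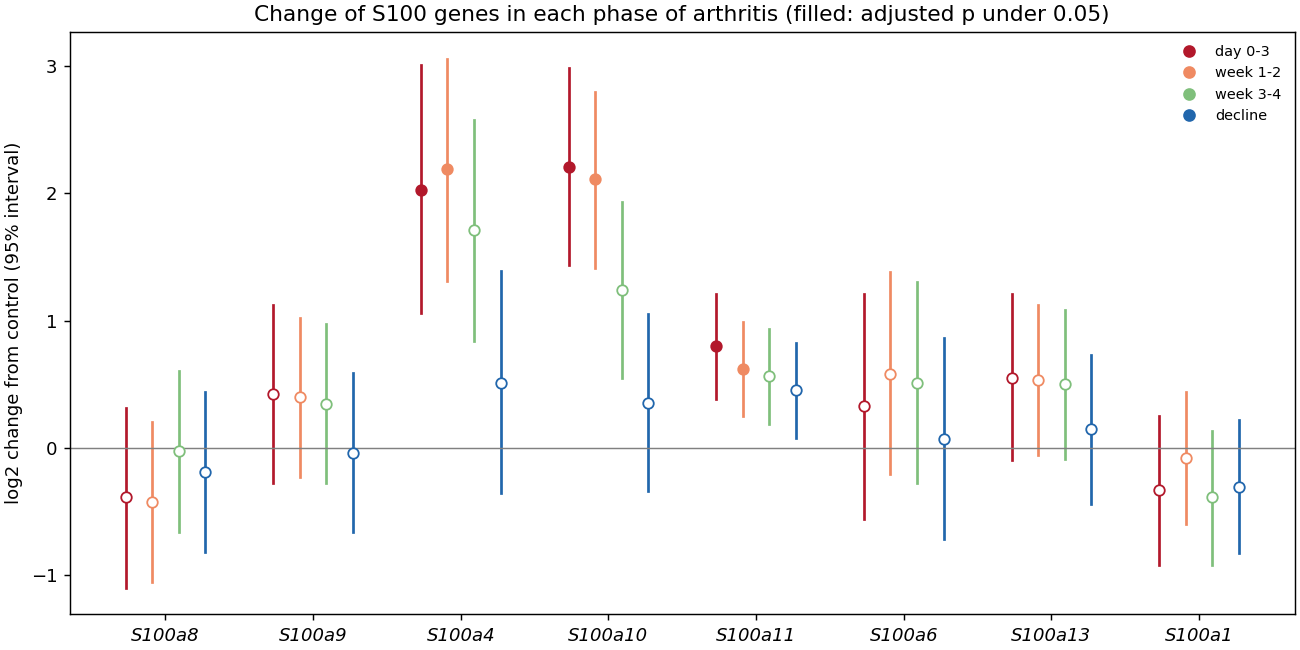
Log2 change from control of the 8 S100 genes in each phase of arthritis (limma, 14 arrays); points are differences of group means, bars their 95% intervals, and filled points passed an adjusted p of 0.05. S100a4 and S100a10 stand at 2.03 to 2.21 in the first 2 phases and at 0.51 and 0.35 in decline; with 1 median and SD for every array, S100a11 (from week 1 to week 4), S100a9 and S100a6 (first 3 phases) and S100a6 (decline) fall below 0.

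S100a10, the annexin A2 partner, had the largest change of the 8 at day 0 to 3. Its log2 value was 8.49, 7.96 and 8.81 in the 3 controls, and 10.78 and 10.48 in the joints of day 0 to 3. The joints of week 1 to 2 read 10.42, 10.52 and 10.64. All 5 joints of the first 2 weeks thus lay above every control, and both phases overlapped. The gene was 2.21 higher at day 0 to 3 (SE 0.36, 95% interval 1.44 to 2.99, 4.64-fold, limma adjusted p = 0.0038) and 2.11 higher in week 1 to 2 (SE 0.32, 1.41 to 2.80, 4.32-fold, adjusted p = 0.0032). Without animal 16 the first of these was 2.06, at an adjusted p of 0.071. In week 3 to 4 the values were 9.21, 9.41 and 10.36. These 3 joints still lay above the controls, but below all 5 of the first 2 weeks. The difference from control was 1.24 (SE 0.32, 2.36-fold) with an adjusted p of 0.065 in limma, and that from the first 2 weeks -0.92 (95% interval -1.55 to -0.30, adjusted p = 0.38). In decline the values were 9.11, 9.09 and 8.11, overlapping the controls. The difference from control was then 0.35 (-0.34 to 1.05, limma adjusted p = 0.69). In order of the group means the gene thus went from 10.63 ± 0.21 (SD, n = 2) at day 0 to 3 and 10.53 ± 0.11 (n = 3) in week 1 to 2, which overlap, over 9.66 ± 0.62 in week 3 to 4 to 8.77 ± 0.57 in decline and 8.42 ± 0.43 in control, which overlap too.

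S100a4 followed much the same course. Its log2 value was 9.24, 8.14 and 9.38 in controls, 11.03 and 10.87 in the joints of day 0 to 3, and 10.84, 11.04 and 11.43 in week 1 to 2. Every joint of the first 2 weeks lay above every control. The rise was 2.03 at day 0 to 3 (SE 0.45, 95% interval 1.06 to 3.01, 4.10-fold, limma adjusted p = 0.018) and 2.19 in week 1 to 2 (SE 0.41, 1.31 to 3.06, 4.55-fold, adjusted p = 0.007). At day 0 to 3 the call was lost without animal 16 (1.96), animal 18 (2.11) or control 2 (1.64, adjusted p = 0.05 after rounding). It was also lost without moderation of the variances (adjusted p = 0.066). In week 3 to 4 the values, 10.41, 10.40 and 11.08, were also above all controls, and reached into the range of week 1 to 2. The difference from control, 1.71 (SE 0.41, 3.27-fold), missed the threshold narrowly, at an adjusted p of 0.053 in limma, and passed it under 6 other settings besides those that leave out single arrays. The declining joints were spread most widely, at 9.46, 10.33 and 8.51, from inside the control range to close to week 3 to 4, and the difference from control was 0.51 (-0.36 to 1.39, adjusted p = 0.64). Over the 14 arrays the values of S100a4 and S100a10 ran together at a Pearson r of 0.95, as a description of arrays that share the contrast of groups and its range of signal.

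**Figure D2:**
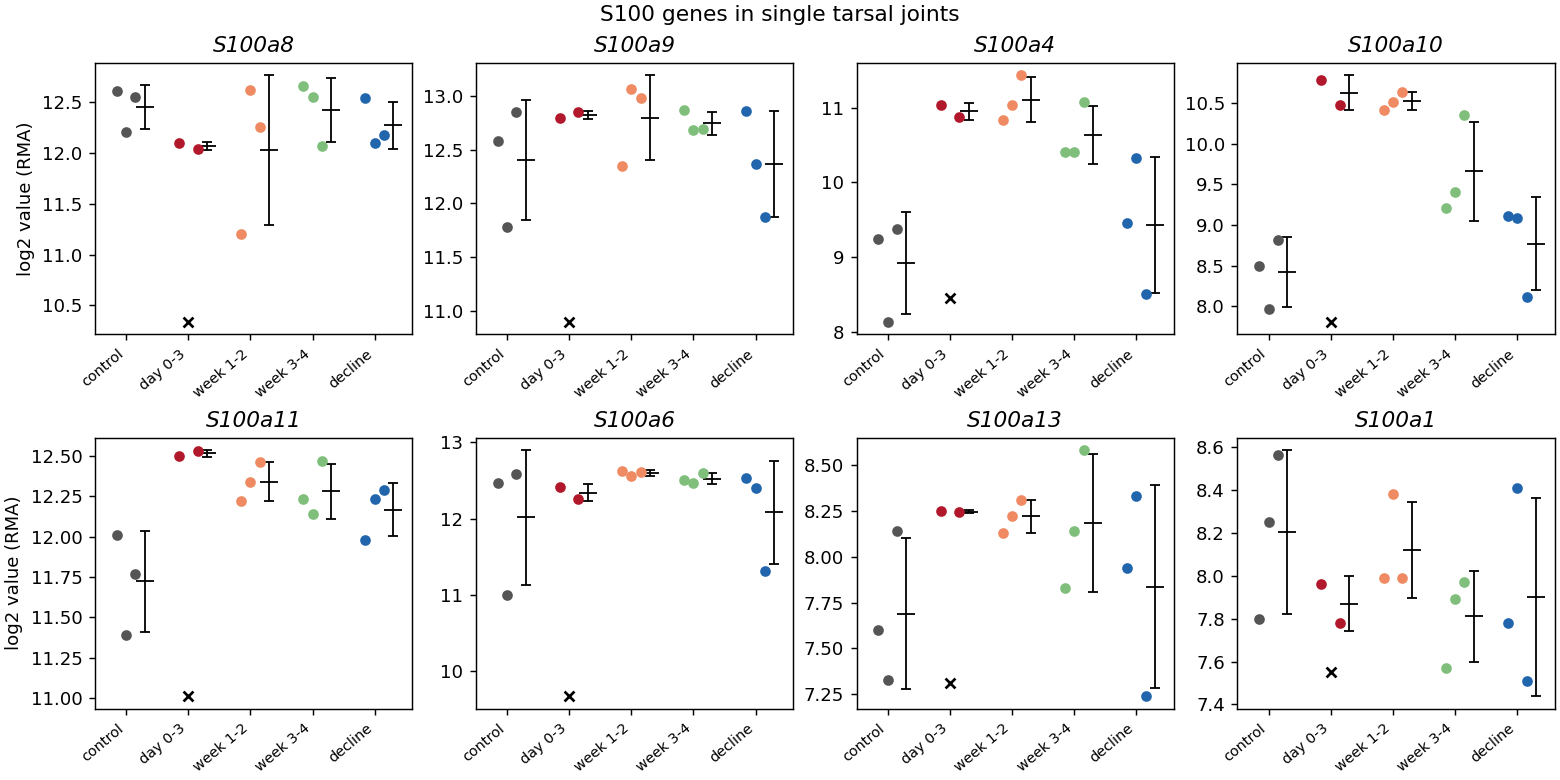
Log2 value of each S100 gene in single tarsal joints, by group; points are joints, the bar beside them is the mean ± SD, and the cross is animal 57, which failed quality control. S100a4 and S100a10 of all 5 early joints lie above every control.

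S100a11, a partner of annexin A1, was higher in the deposited values at small size. Its log2 value was 12.01, 11.39 and 11.77 in controls. At day 0 to 3 it was 12.50 and 12.53, with 12.22, 12.34 and 12.46 following in week 1 to 2, and 12.23, 12.14 and 12.47 in week 3 to 4. No joint of these 3 phases overlapped the controls, of which control 2 was the lowest. The gene was 0.80 higher at day 0 to 3 (SE 0.19, 1.74-fold, limma adjusted p = 0.026), but 0.06 with 1 median and SD for every array (adjusted p = 0.94). In week 1 to 2 it was 0.62 higher (SE 0.17, 1.54-fold, limma adjusted p = 0.038), and -0.11 after that rescaling. The difference of 0.56 in week 3 to 4 was not called (adjusted p = 0.094), and rescaling turned it to -0.20. The call at day 0 to 3 was lost without animal 16 (0.81, adjusted p = 0.18), animal 18 (0.78, adjusted p = 0.16) or control 2 (0.63, adjusted p = 0.063), with only the groups compared in the fit (adjusted p = 0.13) and after a second quantile normalisation (0.44, adjusted p = 0.16). That of week 1 to 2 was lost on leaving out any of 8 of the 14 arrays (16, 18, 33, 43, 52, 54, control 2 or control 3), among them control 2 at 0.45 (adjusted p = 0.12). It was also lost with only the groups compared (adjusted p = 0.089), without moderation of the variances (adjusted p = 0.053) and after a second quantile normalisation (0.22, adjusted p = 0.43). In decline it read 11.98, 12.23 and 12.29, with a difference of 0.45 (0.08 to 0.82, adjusted p = 0.34), which rescaling brought to 0.13. A second probe set of S100a11 read 0.61 higher at day 0 to 3 (adjusted p = 0.028 over all probe sets) and 0.50 higher in week 1 to 2 (adjusted p = 0.034). RefSeq lists a pseudogene, S100a11-ps, and probes cannot separate near-identical copies.

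S100a13 and S100a6, the other broadly expressed members, did not pass the test. S100a13 was at 7.60, 7.33 and 8.14 in controls and held narrowly between 8.13 and 8.31 in the 5 joints of the first 2 weeks. Its differences from control were 0.55, 0.53, 0.50 and 0.15 over the 4 phases, the lowest limma adjusted p was 0.21, and the 95% interval in week 1 to 2 ran up to 1.12. S100a6 stood at 12.46 and 12.59 in controls 1 and 3 and at 11 in control 2, more than 1 unit below both. It read 12.42 and 12.26 at day 0 to 3, and the joints of week 1 to 2 were at 12.63, 12.56 and 12.61, just above the highest control in 2 of 3 joints, and decline 10, at 11.31, lay below the other declining joints, at 12.53 and 12.40. Its differences, 0.33, 0.58, 0.51 and 0.07 (lowest limma adjusted p = 0.29), all turned negative with 1 median and SD for every array, to -0.40, -0.15, -0.25 and -0.30. A second quantile normalisation turned that of day 0 to 3 to -0.07 and that of decline to -0.14. Without control 2 the difference at day 0 to 3 was -0.18.

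S100a8 and S100a9, the calprotectin genes, were not called in any phase of the deposited values. Both were among the brightest genes of each of the 14 arrays, with at most 0.757% and 0.251% of genes brighter. The same holds for S100a6 (0.466%) and S100a11 (0.376%). Whether signals this high limit the size of the change that can be read was not tested. S100a8 was at 12.61, 12.21 and 12.55 in control joints, at 12.10 and 12.04 in those of day 0 to 3, and at 11.20, 12.62 and 12.26 in week 1 to 2. Both joints of day 0 to 3 lay below every control, while week 1 to 2 reached from the lowest value of all 14 arrays to above the highest control. The difference was -0.39 at day 0 to 3 (95% interval -1.10 to 0.31, limma adjusted p = 0.46) and -0.43 in week 1 to 2 (-1.06 to 0.20), and the upper bound at day 0 to 3 is a rise of 1.24-fold. Without animal 33, the joint at 11.20, the difference in week 1 to 2 was -0.02 (adjusted p = 0.96). After rescaling to 1 median and SD the difference at day 0 to 3 was -1.20 (limma adjusted p = 0.094). That in week 1 to 2 was then -1.25 and just passed the test, at a limma adjusted p that rounds to 0.05. In week 3 to 4 S100a8 differed by -0.03 (-0.66 to 0.60), or 0.01 after centring on medians, and in decline by -0.19. Over the settings other than single arrays left out, these 2 differences reached down to -0.86 and -0.60.

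S100a9 was at 12.58, 11.78 and 12.85 in controls and 12.80 and 12.85 at day 0 to 3. In week 1 to 2 it was at 12.35, 13.07 and 12.98. Only 2 of these 5 joints lay above the highest control, and control 2 was the lowest of all 14 joints. The differences of 0.42, 0.40 and 0.34 in the first 3 phases (limma adjusted p = 0.42, 0.37 and 0.45) became -0.39, -0.42 and -0.48 after rescaling, and in decline the difference was -0.04, or 0.00 after centring on medians. Without control 2 the first 3 were 0.11, 0.08 and 0.03. Across the 14 arrays S100a8 and S100a9 correlated at a Pearson r of 0.37, and S100a9 with S100a6 at 0.84.

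S100a1, the striated muscle member, was not called in any phase. It was at 7.80, 8.25 and 8.56 in controls and at 7.96 and 7.78 in the joints of day 0 to 3. In week 1 to 2 it read 7.99, 8.38 and 7.99, in week 3 to 4 it read 7.57, 7.89 and 7.97, and in decline 7.78, 8.41 and 7.51. Every phase overlapped the controls, with differences of -0.33, -0.08, -0.39 and -0.31 (lowest limma adjusted p = 0.32), of which that of week 1 to 2 was 0.00 after centring each array on its median. Among 16 skeletal muscle markers, 15 were called lower at day 0 to 3 (against 3.36% of all genes), with Atp2a1, the calcium pump of fast muscle, at -3.32 (adjusted p = 5.3e-04). In week 1 to 2, 6 of the 16 were called lower (4.64% of all genes) and in week 3 to 4, 5 (0.592%). Ryr1, the muscle calcium channel that S100a1 binds, was at -2.07, -1.54 and -1.36 in those phases and called lower in each (limma adjusted p = 0.0015, 0.0036 and 0.025). Whether the difference between S100a1 and these genes is larger than its error was not tested.

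Between phases, S100a10 and S100a4 fell from the first 2 weeks of arthritis to decline, and no other member was called. Between the 2 early phases no member was called (0.00502% of all genes were), 0 were called without moderation, and 0 had an unadjusted p under 0.05 in limma, as 1.79% of all genes did. Week 3 to 4 against the first 2 weeks also gave 0 calls (0.00502% of all genes), with S100a10 alone at an unadjusted p under 0.05, as were 7.27% of all genes. In decline S100a10 stood against the first 2 weeks at -1.81 (SE 0.29, 95% interval -2.44 to -1.18, 3.50-fold lower, limma adjusted p = 0.0088). S100a4 was at -1.60 (SE 0.37, -2.38 to -0.81, 3.02-fold lower, adjusted p = 0.027). These are 2 of the 8 members, against 2.08% of all genes called lower, and for both genes all 3 declining joints lay below all 5 early ones. S100a9 was at -0.45 (-1.01 to 0.12) and S100a6 and S100a13 at -0.39 each, none called. The call of S100a4 was lost on leaving out either joint of day 0 to 3, animal 43, animal 52, decline 15 or decline 10. Without decline 10 its difference was -1.14 (adjusted p = 0.10). The call was also lost without moderation of the variances (adjusted p = 0.10). The names of the 11 arthritic arrays carry 1 of 2 letter codes of unstated meaning: all early arrays have one and all declining arrays the other, so code and phase cannot be told apart here. Control arrays carry no code, so code and disease cannot be told apart in any comparison with controls either. Animal 54 of week 3 to 4 has the code of the early arrays and animals 29 and 60 that of the declining ones.

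Some markers of macrophages, fibroblasts and endothelium were called higher in the first 2 weeks, as S100a4, S100a10 and S100a11 were. Macrophage markers gave 7 of 15 called higher at day 0 to 3 (4.46% of all genes), and 4 higher (5.41%) and 1 lower (4.64%) in week 1 to 2. These shares of all genes apply to the lists that follow too. The higher ones included the scavenger receptor Msr1, at 2.87 and 2.28. The mean of the macrophage list lay at 8.24 to 9.0 in the 5 early joints against 7.45 to 8.07 in controls. Fibroblast markers gave 2 of 12 and then 5 called higher, among them the matrix proteoglycan Lum, at 1.68 and 1.92, with a mean of 10.45 to 10.57 in early joints against 9.36 to 10.20 in controls. Endothelial markers gave 4 of 6 called higher at day 0 to 3 (median of the list 1.14) and 1 in week 1 to 2, with a mean of 7.82 to 8.41 in early joints against 7.20 to 7.82 in controls. Neutrophil markers gave 1 of 15 called higher at day 0 to 3 (Csf3r, the G-CSF receptor, 1.62, limma adjusted p = 0.017) and 0 in week 1 to 2, with a mean of 7.25 to 8.59 in early joints that overlapped the 7.21 to 8.10 of controls. Its chemokine receptor Cxcr2 was at 2.25 without passing the test (adjusted p = 0.055), and the granule gene Ngp at -1.23. In decline against the first 2 weeks, 12 of 13 epidermal markers and 9 of 16 muscle markers were called higher (2.67% of all genes). Called lower (2.08% of all genes) were 3 of 15 macrophage markers (median of the list -0.59) and 1 of 6 endothelial markers (-0.68). So were 1 of 12 fibroblast markers (-0.38), 1 of 15 neutrophil markers (0.17) and 1 of 4 Schwann cell markers (0.08). Of the Schwann cell markers 1 was also called higher. The part of these cell types in the levels of S100a4 and S100a10 was not tested.

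**Figure D3:**
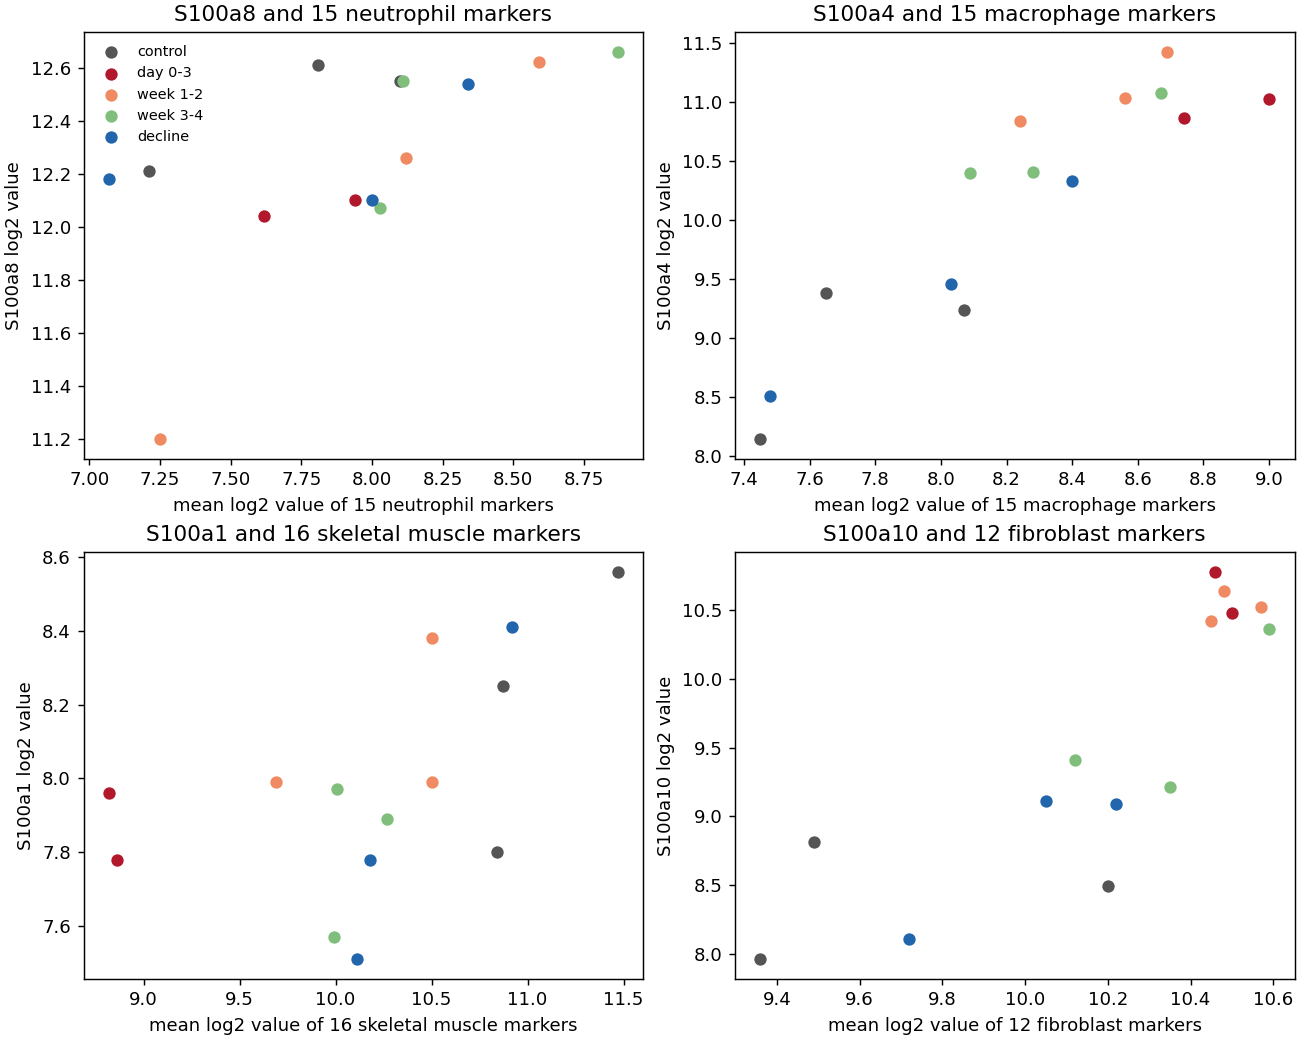
Log2 value of 4 S100 genes (vertical) against the mean log2 value of a marker list (horizontal), 1 point for each of the 14 joints, coloured by group. The joint with the lowest S100a8 value, 11.20, has a neutrophil mean of 7.25, while decline 10 and control 2, with lower means of 7.07 and 7.21, have S100a8 at 12.18 and 12.21. Early joints lie towards the upper right for S100a4 with macrophage markers and S100a10 with fibroblast markers, but not alone. Animal 60 of week 3 to 4 lies near them, with means of 8.67 (S100a4 11.08) and 10.59 (S100a10 10.36). The macrophage mean of early animal 33, 8.24, is below that of decline 21, 8.40.

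Among 16 genes whose products bind S100 proteins, 2 were called higher and 1 lower at day 0 to 3 (4.46% and 3.36% of all genes). In week 1 to 2, 4 were called higher and 1 lower (5.41% and 4.64% of all genes). Anxa2, which pairs with S100a10, was 9.22, 8.05 and 9.07 in controls and 9.51 to 10.26 in the 5 early joints, 1.29 higher at day 0 to 3 (limma adjusted p = 0.033) and 1.10 in week 1 to 2 (adjusted p = 0.034). Anxa1, the partner of S100a11, rose by 1.79 (adjusted p = 0.03) and 2.13 (adjusted p = 0.0079). Cacybp, which S100a6 binds, and Anxa5 rose in week 1 to 2, by 0.90 (adjusted p = 0.032) and 0.89 (adjusted p = 0.037). The lower one was Ryr1. Of 8 genes for receptors of S100 proteins and their signalling, Myd88, the adaptor of TLR4, was the single one called in any phase against control, at 1.43 at day 0 to 3 (adjusted p = 0.043). Ager, the receptor RAGE, was at -0.03, 0.01, -0.12 and 0.00 in the 4 phases. Cd14, the co-receptor of TLR4, was called lower in decline than in the first 2 weeks, at -1.06 (adjusted p = 0.049). How the calls of these partner and receptor genes fare under rescaling, with animal 57 or without single arrays was not examined. Control 2 was the lowest control for Anxa1 (6.58), Anxa2 (8.05), Anxa5 (10.58) and Cacybp (8.38), and control 3 for Myd88 (6.34).

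Of the 9 other S100 genes measured, none was called higher in any phase against control. S100g alone was called lower, at -0.82 in week 1 to 2 (limma adjusted p = 0.0099) and -0.74 in week 3 to 4 (adjusted p = 0.044). Of all genes 4.64% and 0.592% were called lower in these phases. S100a14, an epithelial gene, was low in early joints and high in decline. It read 5.70 and 5.33 at day 0 to 3, with 5.77, 5.96 and 6.41 following in week 1 to 2, and 9.85, 11.12 and 8.30 in decline. The joints of week 3 to 4 split by array name code, at 6.52 in animal 54 and 9.71 and 10.13 in animals 29 and 60, and code and phase cannot be told apart between decline and the first 2 weeks. The difference between decline and the first 2 weeks was 3.98 (SE 0.79, 15.7-fold, adjusted p = 0.016), while controls, at 5.70, 6.90 and 8.25, spread over most of that gap. S100a3 was the other one called in that comparison, at 1.29 (adjusted p = 0.039). Of 6 measured genes of the fused S100 type, long proteins of the skin barrier that begin with an S100 domain, 4 were called higher there (2.67% of all genes). Hornerin (Hrnr) was at 4.84 (adjusted p = 0.019) and Flg2 at 3.45 (adjusted p = 0.031). The 13 epidermal markers had a mean of 5.87 to 6.45 in early joints, 9.52 to 10.46 in decline and 6.43 to 9.25 in controls. In week 3 to 4 their mean split the joints as S100a14 did, at 6.75 in animal 54 and 9.82 and 9.81 in animals 29 and 60. Control 3 was the highest control for both, with a marker mean of 9.25. What the markers contribute to S100a14 was not tested.

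For each member the 3 genes with the most similar values over the 14 arrays, of 12206 genes with a mean of at least 6, are given as a description. S100a8 ran most closely with Cd177 (Pearson r = 0.777), a surface protein of neutrophils, and with Ngp (0.764) and Prtn3 (0.752), which code for granule proteins. S100a10 ran with Lsm7 (0.978), Pfdn5 (0.975) and Tmsb4x (0.974), and S100a4 with Ube2v2 (0.976), Igfbp7 (0.972) and Taf9 (0.968). For S100a9 they were Pygl (0.954), Txnl1 (0.936) and Rnf130 (0.924), and for S100a11 Rbbp7 (0.958), Myo10 (0.955) and the cathepsin gene Ctss (0.947). S100a6 ran with Ghitm (0.970), U2surp (0.969) and Golph3 (0.963), and S100a13 with Tmem65 (0.976), Ndufa1 (0.951) and Uxt (0.946). S100a1 had the lowest likeness among the stromal and muscle members, with Got1 (0.840), Atp5a1 (0.819) and Atp5b (0.809), which code for the cytosolic aspartate aminotransferase and for subunits of the mitochondrial ATP synthase. These values rest on arrays that share their groups and differ in signal range.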

How the data were processed

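RNA from single joints (mirVana columns, NuGEN Pico amplification) had been hybridised to Affymetrix Mouse Gene ST arrays, version 1.0. The authors ran RMA (background correction, quantile normalisation, probe summary) in R 2.15 and deposited its log2 values, which reach from 1.56 to 14.26. No version of affy was given. Of 35556 probe sets, the 21789 that name 1 gene were used (1621 name several, 12146 are not listed), and the brightest stood for a gene. The 14 arrays not marked as failing were fitted with 5 group means in limma 3.58.1 (R 4.3.3; lmFit, contrasts.fit, eBayes), with Benjamini-Hochberg adjustment over 19938 genes. "First 2 weeks" is the mean of the 2 early group means. The calculation was tested on simulated data. Members and lists were chosen with earlier results of these data known. Genes are named by rule: all members, up to 4 of a list with the largest change against control, and the 3 most correlated with each member; others (Anxa5, S100a11-ps, Prg4, Comp, Ager) were added after their values were seen. The labels do not pair animals between groups. Alternatives were animal 57 added, single arrays left out, no moderation, only the groups compared, other normalisations, a filter on dim genes, other treatments of probe sets, and the array name code as a block. They were read for the members only, so calls of other named genes rest on the main fit. Precision rests on 2 or 3 joints a group.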

Additional observations from a re-analysis of the deposited data

Results flagged for a closer look

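S100a10, at -1.81, and S100a4, at -1.60, differed between decline and the first 2 weeks of arthritis by a test of that difference (limma adjusted p = 0.0088 and 0.027), with all 3 declining joints below all 5 early ones. On the array of animal 57, which was left out of the main comparisons because it failed quality control, 4 of the 9 other S100 genes lay above every control, as did 36.3% of all genes: S100a2 at 7.23 (highest control 6.94), S100a7a at 7.47 (6.93), S100b at 5.83 (5.76) and S100z at 5.44 (5.29). On the same array 7 of the 8 members lay below every control, as did 27.4% of all genes, S100a8 at 10.34 and S100a6 at 9.67 among them, and the SD over genes was 1.08, below that of the 14 others.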

How the results depend on the processing

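The 3 calls at day 0 to 3 and the 3 in week 1 to 2 became 0 with animal 57 added, as did the 2 between decline and the first 2 weeks. Calls over all 19938 genes fell too. Genes called higher went from 890 to 11 at day 0 to 3 and from 1079 to 22 in week 1 to 2. Genes called lower in decline than in the first 2 weeks went from 414 to 13. Leaving out 1 array at a time gave 0 to 3 calls at day 0 to 3 (0 without animal 16, 1 without animal 18 and 1 without control 2; leaving out animal 16 or 18 leaves 1 array in that group, assumed to vary like the other groups), 2 to 3 in week 1 to 2, 0 to 2 in week 3 to 4 (1 without decline 21, 2 without decline 10 and 2 without control 1) and 1 to 2 between decline and the first 2 weeks, where the ANOVA gave 1. For week 3 to 4, where no member was called, 1 was called after a second quantile normalisation, over genes with a mean of at least 6 in some group, with probe sets of a gene averaged, with 1 median and SD for every array, and without control 2 and decline 10, and 3 with the array name code as a random block (correlation -0.158). Calls over all genes moved as well. Without control 2, genes called higher at day 0 to 3 fell from 890 to 458. In week 3 to 4 they rose from 191 to 294 without decline 21, 847 without decline 10 and 865 without control 1. They were 165 to 405 in the other settings that called 1 member, and 1326 with the block. Genes called lower in decline than in the first 2 weeks fell from 414 to 144 without decline 10 and 69 without moderation. Outside week 3 to 4 the code coincides with phase, and controls carry none, so the block cannot separate code from phase or disease. With its negative correlation the SE of S100a4 at day 0 to 3 went from 0.45 to 0.37. No paired analysis was possible because the animal numbers are not shared between groups. Of 1025 member values under other settings, 936 kept direction and side of the threshold, 38 lost a call, 15 gained one and 36 changed sign, none of these in S100a4 or S100a10. Many could not change sign: leaving out an array outside a comparison leaves its difference as it was. So do fits without moderation or with only the groups compared, and the filter on dim genes. For members with 1 probe set the treatments of probe sets do so too. The 936 is therefore no measure of stability. With animal 57, S100a9 was -0.22 and S100a6 -0.56 at day 0 to 3, and S100a6 0.05 between decline and the first 2 weeks. With 1 median and SD for every array, S100a9 was -0.39, -0.42 and -0.48 and S100a6 -0.40, -0.15 and -0.25 in the first 3 phases, S100a6 -0.30 in decline, and S100a11 -0.11 in week 1 to 2, -0.20 in week 3 to 4 and 0.16 between decline and the first 2 weeks. A second quantile normalisation gave S100a6 -0.07 at day 0 to 3 and -0.14 in decline, and S100a1 0.00 between decline and the first 2 weeks. Without control 2 and decline 10, S100a6 was -0.18 at day 0 to 3 and -0.06 in decline, and S100a1 0.10 between decline and the first 2 weeks. Centred on medians, S100a1 in week 1 to 2 was 0.00, S100a8 in week 3 to 4 0.01 and S100a9 in decline 0.00. Leaving out 1 array, S100a6 ranged from -0.18 to 0.61 at day 0 to 3 and from -0.44 to 0.45 in decline, S100a1 from -0.28 to 0.10 in week 1 to 2 and from -0.36 to 0.10 between decline and the first 2 weeks, S100a8 from -0.15 to 0.15 in week 3 to 4, and in decline S100a9 from -0.35 to 0.21 and S100a13 from -0.10 to 0.44. The cause of these changes was not tested. The rescaling and the setting without control 2 and decline 10 were chosen after seeing the data.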

Other observations

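The difference S100a9 minus S100a8 within a joint was chosen after the values had been seen and is given as a description, without a test. On the log2 scale it was 0.70 and 0.81 at day 0 to 3, then 1.15, 0.45 and 0.71 in week 1 to 2, against -0.03, -0.44 and 0.30 in controls, so that the groups did not overlap. The mean was 0.76 ± 0.25 (SD, n = 5) in the first 2 weeks and -0.06 ± 0.37 (SD, n = 3) in controls, a difference of 0.82. With 1 median and SD for every array it was also 0.82. A shared median cancels in a difference within an array and the SD only scales it, so that setting could change little. Without animal 33, whose S100a8 was the lowest, the difference between the groups was 0.72. Without control 2 it was 0.63. In week 3 to 4 the difference within a joint was 0.32 ± 0.26 (SD, n = 3), and in decline 0.09 ± 0.36 (SD, n = 3). Signals of separate probe sets cannot be read as a ratio of transcripts, and the comparison is of the same difference between groups.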
